A study of Homo sapiens with 6 samples.

Results

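Transcripts for the sensing of double-stranded RNA, and for the feedback regulator TRAFD1, were examined in MDA-MB-231 cells after silencing of NEK2. MDA-MB-231 is a human triple-negative breast cancer cell line with mesenchymal features, and NEK2 is a mitotic kinase that is abundant in this subtype. The cells were transfected 2 times with a pool of non-targeting siRNAs (si-CTRL, 3 libraries) or with a pool of siRNAs directed at NEK2 (si-NEK2, 3 libraries), so that every culture received double-stranded RNA and lipid, and untransfected cells were not analysed here. The sample records place the harvest 24 h after the second transfection, whereas the methods give 48 h after transfection. One siRNA pool per group was used, and effects of the loss of NEK2 and of other properties of the pools cannot be told apart. The libraries are called triplicates without a statement on separate cultures, and the errors below therefore rest on these libraries only. Each SD is the spread of a gene's own libraries. Standard errors are moderated ones from limma, which draws the variance of each gene towards a trend over all tested genes.

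The 10 genes of this set were chosen by their function in RNA sensing, and TRAFD1 was added because its signal was seen to rise about 3-fold in these same libraries. All fold changes of the 10 genes between si-NEK2 and si-CTRL are therefore descriptions, and no p-value is attached to them. A row was found for 9 of the 10 among the 74852 rows of the deposited gene table. IKBKE, a kinase that acts beside TBK1, was not analysed here. All 9 passed the filter of a mean of at least 10 normalized counts, as did 18717 genes in all.

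Cells read double-stranded RNA in different compartments. In the cytosol, RIG-I (encoded by DDX58) and MDA5 (encoded by IFIH1) bind it and signal through the mitochondrial adaptor MAVS to the kinases TBK1 and IKKε and the transcription factors IRF3 and IRF7, while LGP2 (encoded by DHX58) tunes both helicases. TLR3 reads double-stranded RNA in endosomes, and PKR (encoded by EIF2AK2) answers to it by phosphorylating the translation factor eIF2α. Many of these genes are themselves induced by interferon, and TRAFD1, a zinc finger protein also called FLN29, is an interferon-inducible regulator that dampens innate signalling. Short siRNA duplexes can engage several of these sensors, depending on their ends and sequence.

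The libraries held between 52625492 and 87454509 assigned reads, and 1 read was worth between 0.818 and 1.25 normalized counts. NEK2 itself had 3702, 3323 and 3290 normalized counts in the si-CTRL libraries and 284, 362 and 388 in the si-NEK2 libraries. The mesenchymal transcripts VIM, ZEB1, CD44 and AXL were present in every library, and CDH1, EPCAM, ESR1 and PGR stayed at or below 15.2 normalized counts, whereas ERBB2 was not absent (means of 2822 in si-CTRL and 4020 in si-NEK2). The leukocyte markers PTPRC, CD3E, CD14, LYZ and IL3RA reached at most 25.4 normalized counts, with IL3RA at 0 reads in all libraries. In the principal component analysis, si-CTRL replicate 1 stood apart from the others on the second component (16.2% of the variance). Over all tested genes, 8.23% were higher and 14.3% were lower in si-NEK2 cells when both the limma p-value (0.05 or less) and the change (1.5-fold or more) were required, and 36.6% of these calls were higher. Setting all libraries to equal totals changed that share to 21.3% and moved the median log2 fold change of all genes from 0.01 to -0.12.

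By the size of the difference alone, with no test, 1 of the 9 genes (TRAFD1) was at least 1.5-fold higher and 1 (TLR3) at least 1.5-fold lower, beside shares of 9.55% and 16% over all tested genes. In 2 genes (TRAFD1 and IRF3) all si-NEK2 libraries lay above all si-CTRL libraries, which was the case for 28.2% of all tested genes. In 3 genes (DHX58, TLR3 and MAVS) they all lay below, as did 26.9% of all tested genes. The groups overlapped for the remaining 4, DDX58, IFIH1, EIF2AK2 and IRF7. The median log2 fold change of the 9 genes was -0.23.

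**Figure D1:**
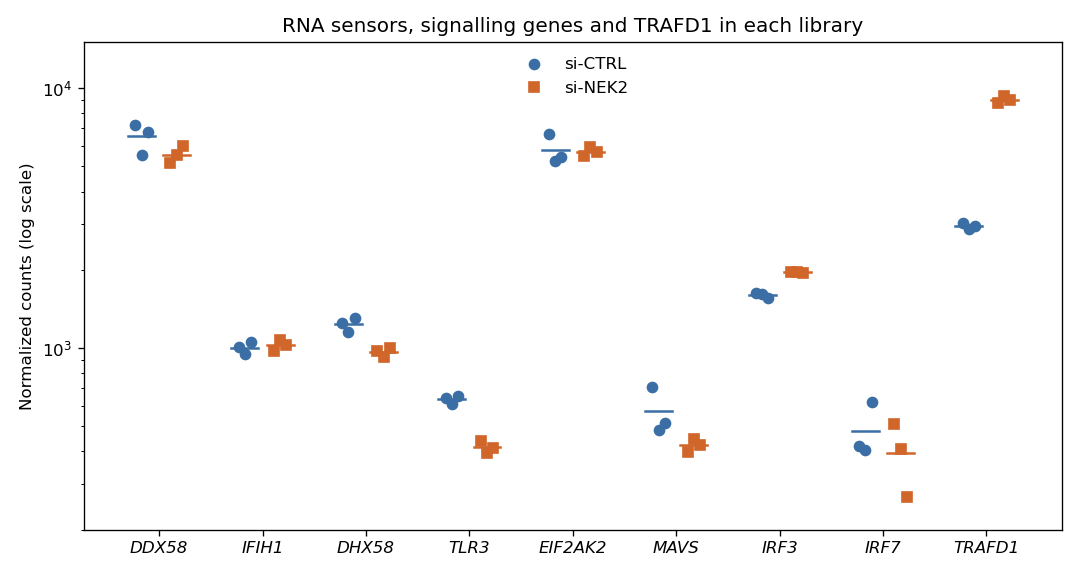
Normalized counts (log axis) of the 9 genes in each library, with si-CTRL as circles and si-NEK2 as squares; horizontal lines are the means of 3 libraries. The groups are far apart for TRAFD1, with 2875 to 3026 against 8733 to 9365, and overlap for DDX58, IFIH1, EIF2AK2 and IRF7.

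TRAFD1 (GSHG0007013, chromosome 12 from 112563342 to 112591412, hg19) had the largest difference of the set. It was measured at 3026, 2875 and 2950 normalized counts in the si-CTRL libraries and at 8733, 9365 and 9003 in the si-NEK2 libraries. No si-NEK2 library came near the si-CTRL range. The mean went from 2950 ± 75.6 to 9034 ± 318 (SD, n = 3 per group), a ratio of 3.06 and a log2 fold change of 1.61 (standard error 0.06). Among the 18717 tested genes, 132 (0.705%, TRAFD1 included) had a log2 fold change at least as high.

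TRAFD1 was also one of the steadiest transcripts of the set within each group. Its coefficient of variation was 2.56% in si-CTRL and 3.52% in si-NEK2 cells, where counting of reads alone gives 1.88% and 1.01%. If each fragment was counted as 2 reads, counting alone gives 2.66% and 1.43%, and the si-CTRL spread is not above it. It rested on 2421 to 3103 reads per si-CTRL library and 8438 to 10671 reads per si-NEK2 library. The log2 fold change was between 1.59 and 1.64 over the 6 fits that omit 1 library, and the lowest value under any scaling was 1.49.

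The genes whose values over the 6 libraries followed TRAFD1 most closely were RMND5A and MKLN1 (Pearson's r of 0.9997 each), HSPA4 and SCG2 (0.9996 each) and ANXA3 (0.9994), among 12915 genes with a symbol and a mean of at least 50 normalized counts. These correlations are carried by the difference between the groups, and 312 genes had an r above 0.99. RMND5A, a subunit of the CTLH ubiquitin ligase, went from 1124 to 3095 normalized counts. MKLN1, which encodes muskelin and belongs to the same ligase, went from 3337 to 6035. SCG2, a secretory granule protein, went from 2562 to 15768.

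Genes beside TRAFD1 were examined by the coordinates of the file. Within 250 kb of its gene body 6 other genes were tested, and 1 of them, NAA25, passed the thresholds. Over all tested genes 8.23% passed on the higher side. NAA25 encodes a subunit of the NatB N-terminal acetyltransferase and ends 16.7 kb before TRAFD1 begins. It had 3096, 3945 and 3683 normalized counts in si-CTRL and 6223, 6877 and 6388 in si-NEK2 libraries. The groups did not overlap, with a difference of 0.87 on the log2 scale (standard error 0.10; limma, Benjamini-Hochberg adjusted p = 0.000186). On the other side, 6.58 kb away, the row of HECTD4, shared with MIR6861, had a log2 fold change of 0.44 (standard error 0.11; limma, adjusted p = 0.00967), under the fold change of 1.5. The others, MAPKAPK5, TMEM116, ADAM1A and ERP29, lay between -0.18 and 0.34 on the log2 scale. All si-NEK2 libraries lay above all si-CTRL libraries for NAA25, HECTD4, MAPKAPK5 and ERP29, as they did for 28.2% of all tested genes. The next gene after HECTD4 is RPL6, at 252 kb, with a log2 fold change of 0.52 (limma adjusted p = 0.000222). On the side of NAA25, MAPKAPK5-AS1, at -283 kb, had a log2 fold change of 0.57 (limma adjusted p = 0.000611). No row with a symbol overlaps TRAFD1, and the 1 overlapping row without a symbol had a mean of 0 in si-CTRL and 0.273 in si-NEK2 normalized counts.

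**Figure D2:**
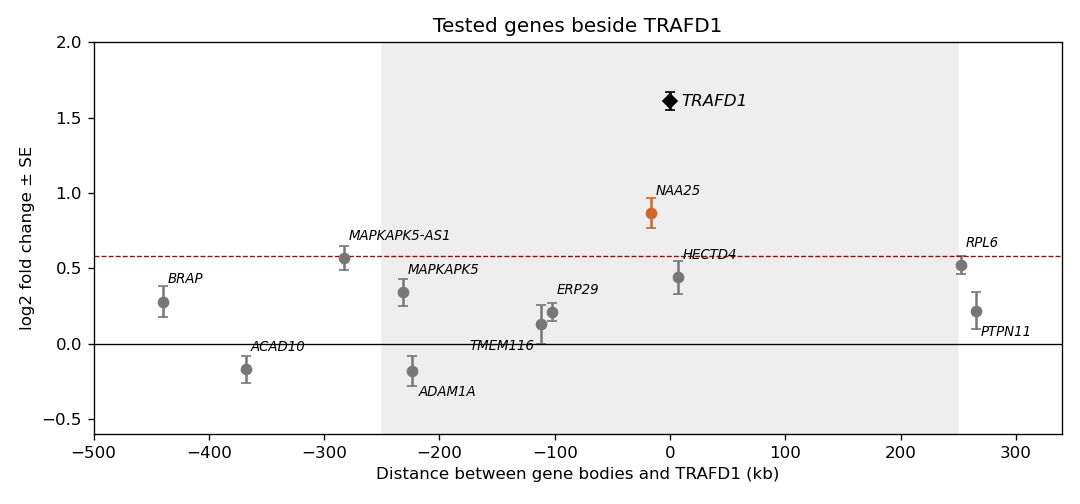
log2 fold change (si-NEK2 over si-CTRL, bars are standard errors) of tested genes by the distance in kb between their gene body and that of TRAFD1; the shaded area spans 250 kb on each side and the dashed line marks a fold change of 1.5. NAA25 at 0.87 is the only neighbour above the line, and TRAFD1 lies at 1.61.

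The sensors themselves are described next. TLR3 (GSHG0023026, chromosome 4 from 186990309 to 187008826, hg19), the endosomal receptor, had 639, 610 and 655 normalized counts in the si-CTRL libraries and 439, 395 and 411 in the si-NEK2 libraries. All si-NEK2 values were below all si-CTRL values, by a wide gap compared with the range inside either group. The means were 635 ± 22.7 and 415 ± 22.6 (SD, n = 3 per group), so that 65.4% remained. The log2 fold change of -0.61 (standard error 0.09) lay just past a fold change of 1.5. It came to -0.58 without si-NEK2 replicate 2 and to -0.49 after quantile normalization, both inside that fold change.

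DHX58 (GSHG0013412, chromosome 17 from 40253426 to 40264751, hg19), which encodes LGP2, had 1245, 1155 and 1304 normalized counts in si-CTRL and 973, 919 and 997 in si-NEK2 libraries. Its groups did not overlap either, although the distance was smaller than for TLR3. The means were 1235 ± 74.9 and 963 ± 39.7 (SD, n = 3 per group), with a log2 fold change of -0.36 (standard error 0.08).

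DDX58 (GSHG0030744, chromosome 9 from 32455300 to 32526344, hg19), which encodes RIG-I, had 7232, 5524 and 6792 normalized counts in si-CTRL and 5133, 5507 and 6004 in si-NEK2 libraries. The si-CTRL library with the lowest value, replicate 2, lay within the si-NEK2 range. The log2 fold change was -0.23 (standard error 0.11), and it was -0.15 without si-CTRL replicate 1 and -0.34 without si-CTRL replicate 2.

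IFIH1 (GSHG0018106, chromosome 2 from 163118502 to 163175218, hg19), which encodes MDA5, had 1004, 945 and 1050 normalized counts in si-CTRL and 975, 1077 and 1025 in si-NEK2 libraries. The groups covered nearly the same range. The log2 fold change was 0.04 (standard error 0.08), with -0.09 with all libraries set to equal totals.

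EIF2AK2 (GSHG0017549, chromosome 2 from 37332286 to 37384190, hg19), which encodes PKR, had 6672, 5221 and 5421 normalized counts in si-CTRL and 5467, 5946 and 5670 in si-NEK2 libraries. The si-NEK2 values all fell inside the si-CTRL range. The log2 fold change was -0.01 (standard error 0.10), and 0.10 without si-CTRL replicate 1, the library with the highest value.

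**Figure D3:**
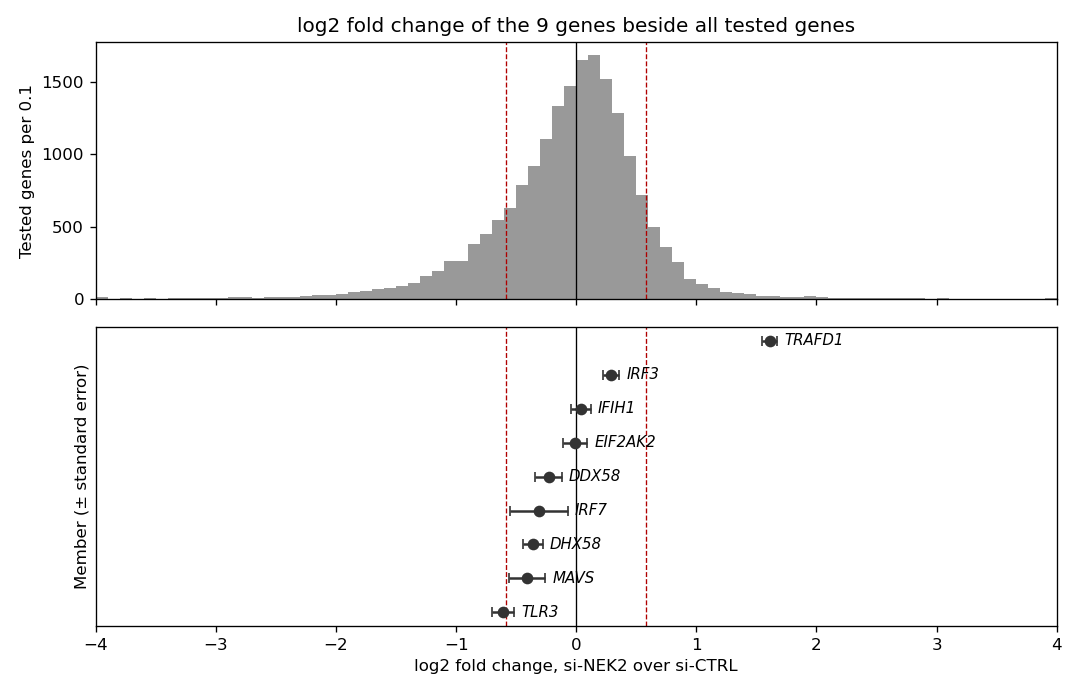
Above, the number of tested genes per 0.1 of log2 fold change (si-NEK2 over si-CTRL), with values beyond 4 in either direction drawn in the outermost bars; below, the 9 genes with their standard errors. Dashed lines mark a fold change of 1.5: TRAFD1 at 1.61 and TLR3 at -0.61 lie outside them, and the other 7 genes lie between -0.41 and 0.29.

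The promoters of the sensors were compared in sequence, since interferon acts on many of its target genes through the interferon-stimulated response element. RefSeq promoters (GRCh38.p14, 250 bases before to 50 bases after the start of the gene) were at hand for 5 of the 9 genes, DDX58 (listed there as RIGI), IFIH1, TLR3, EIF2AK2 and MAVS, and not for DHX58, IRF3, IRF7 and TRAFD1. The core of the element was searched as GAAA, any 2 bases and GAAA, on both strands. It occurred in 3.57% of 35116 promoters. Of the 5 genes, IFIH1, TLR3 and EIF2AK2 held it, and these letters are not in the windows of DDX58 and MAVS. The site nearest to the start is shown for IFIH1, EIF2AK2 and TLR3. Capitals mark the 10 bases of the match, and each line is written 5′ to 3′ on the strand of the gene. The site of IFIH1 (chr2:162318686-162318715, minus strand) begins 21 bases before the start, that of EIF2AK2 (chr2:37156967-37156996, minus strand) 6 bases before it and that of TLR3 (chr4:186069142-186069171, plus strand) 4 bases before it, the last with the core on the opposite strand.
IFIH1: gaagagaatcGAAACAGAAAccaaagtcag
EIF2AK2: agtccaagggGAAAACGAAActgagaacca
TLR3: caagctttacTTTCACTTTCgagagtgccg

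IFIH1 had 2 further matches, which overlap each other and begin at positions -159 and -153 from the start on the opposite strand. Of the 3 genes with the core, TLR3 had a log2 fold change of -0.61, whereas IFIH1 (0.04) and EIF2AK2 (-0.01) had values close to 0. A match describes letters and not binding, and whether it bears on these values was not tested.

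MAVS (GSHG0018533, chromosome 20 from 3827446 to 3856770, hg19), the adaptor below RIG-I and MDA5, had 707, 485 and 516 normalized counts in si-CTRL and 396, 448 and 424 in si-NEK2 libraries. All si-NEK2 values were lower, but si-CTRL replicate 1 was well above the other si-CTRL libraries. The log2 fold change of -0.41 (standard error 0.15) came to -0.25 without si-CTRL replicate 1.

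IRF3 (GSHG0016005, chromosome 19 from 50162827 to 50169132, hg19), a latent factor that is activated by phosphorylation, had 1632, 1616 and 1552 normalized counts in si-CTRL and 1958, 1964 and 1936 in si-NEK2 libraries. The values were tight in both groups and did not overlap. The means were 1600 ± 42.1 and 1953 ± 14.5 (SD, n = 3 per group), with a log2 fold change of 0.29 (standard error 0.07). It was 0.16 with all libraries set to equal totals. The row of IRF3 overlaps that of BCL2L12 by 734 bases. BCL2L12, an atypical relative of the BCL2 family, had 1358 ± 190 and 2300 ± 122 normalized counts (SD, n = 3 per group) which is 0.77 higher on the log2 scale (standard error 0.11; limma, Benjamini-Hochberg adjusted p = 0.000619). How reads in the shared bases were assigned is not given in the sources used here, and their part in the value of IRF3 was not tested.

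IRF7 (GSHG0005441, chromosome 11 from 612555 to 615999, hg19), the interferon-inducible factor that amplifies the response, had 420, 403 and 619 normalized counts in si-CTRL and 508, 407 and 268 in si-NEK2 libraries. It was the least steady gene of the set, with a coefficient of variation of 25% in si-CTRL and 30.6% in si-NEK2 cells where counting of reads alone gives 4.62% and 4.76% (6.54% and 6.74% at 2 reads per fragment). Its log2 fold change was -0.31 (standard error 0.24), and it moved to -0.05 without si-NEK2 replicate 3 and to -0.51 without si-NEK2 replicate 1.

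For a comparison of levels between genes, normalized counts were divided by the length of the longest protein-coding transcript of GENCODE 29. In si-CTRL cells the order per kb was DDX58 (1497 ± 204), TRAFD1 (928 ± 23.8), IRF3 (919 ± 24.2), EIF2AK2 (575 ± 78.3), DHX58 (472 ± 28.6), IFIH1 (278 ± 14.5), IRF7 (234 ± 58.5), TLR3 (106 ± 3.77) and MAVS (48.6 ± 10.3; all SD, n = 3). The ranges of TRAFD1 and IRF3 overlapped, as did those of IFIH1 and IRF7, and the other neighbours in this order did not overlap. The order depended on the length. With the median length of the transcripts, EIF2AK2 had 1329 per kb and the rank below DDX58. IRF3 followed at 1100, and TRAFD1 came to rank 4 at 1004 per kb. On this scale RIG-I transcripts thus stood above those of 78.1% of the 12032 tested genes with a length and MAVS above 16.6%. In si-NEK2 cells TRAFD1 reached 2843 ± 99.9 per kb, above DDX58 at 1274 ± 100 (SD, n = 3).

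The other genes of the pathway were taken from 10 lists with 135 genes in all. The lists were compiled with earlier results of these libraries known. Of 119 rows tested, 5 were higher and 18 lower by these criteria, and all 23 stayed within 0.05 in limma after Benjamini-Hochberg adjustment. Over all tested genes the shares were 8.23% and 14.3%. The median log2 fold change of the 119 rows was -0.06, against 0.01 for all genes.

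**Figure D4:**
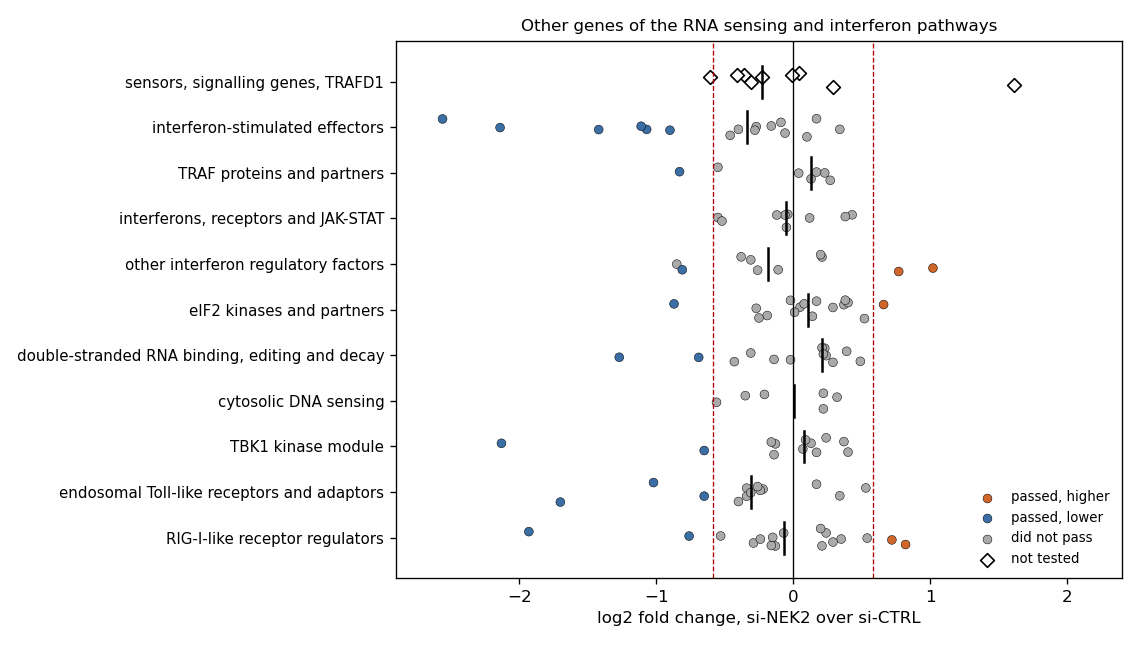
log2 fold change (si-NEK2 over si-CTRL) of each tested gene in 10 lists of pathway genes, with those past the thresholds in colour, and of the 9 genes described above as open diamonds, which were not tested; vertical bars are medians and dashed lines a fold change of 1.5. Genes past the thresholds were mostly on the lower side (18 of 23), as were 2672 of 4213 calls over all tested genes. The largest number, 6, was among the 16 interferon-stimulated effectors, and the lists held 6 to 17 tested genes.

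Regulators of the RIG-I-like receptors were mixed. Of 17 tested, 2 were higher and 2 lower, with a median log2 fold change of -0.07. RNF125, a ubiquitin ligase that marks RIG-I for degradation, had 270, 284 and 314 normalized counts in si-CTRL and 83.5, 68.7 and 73.6 in si-NEK2 libraries, with a log2 fold change of -1.93 (standard error 0.14; limma, adjusted p = 2.34e-05). TRIM65, the ligase that activates MDA5, fell from 3656 ± 294 to 2156 ± 30.1 (SD, n = 3 per group; log2 fold change -0.76, limma adjusted p = 0.000113). ITCH, which is recruited to degrade MAVS, rose from 9286 ± 283 to 16354 ± 410 (log2 fold change 0.82, limma adjusted p = 2.49e-05). PPP1CC, a catalytic subunit of the phosphatase that acts on RIG-I and MDA5, rose from 12184 ± 985 to 19998 ± 473 (log2 fold change 0.72, limma adjusted p = 0.000124). PPP1CC was at 0.57 after quantile normalization, under the fold change of 1.5.

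Among endosomal Toll-like receptors and their adaptors, 3 of 13 tested were lower and 0 higher. There was 1 higher gene without si-CTRL replicate 1 or si-NEK2 replicate 1, and also after quantile normalization. The median log2 fold change of the list was -0.31. MYD88, the adaptor of most Toll-like receptors but not of TLR3, had 6507, 5240 and 5771 normalized counts in si-CTRL and 1724, 1805 and 1856 in si-NEK2 libraries, so that 30.7% remained (log2 fold change -1.70, standard error 0.09; limma, adjusted p = 5.7e-06). Its kinases IRAK1 (log2 fold change -1.02, adjusted p = 8.94e-06) and IRAK4 (-0.65, adjusted p = 0.00414, both from limma) were lower as well. IRAK4 lay under the fold change of 1.5 after quantile normalization (-0.52), and also when replicate 3 of si-CTRL (-0.58) or replicate 2 of si-NEK2 (-0.54) was omitted. TICAM1, the adaptor that TLR3 uses, had means of 2058 and 1774 normalized counts and a log2 fold change of -0.22 (standard error 0.11; limma, adjusted p = 0.134). TLR7 and TLR8, which read single-stranded RNA, had at most 8 and 2 reads in any library and were not tested.

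In the TBK1 kinase module 2 of 12 genes were lower and 0 higher, around a median log2 fold change of 0.08. TNFAIP3, which encodes the deubiquitinase A20, had 3332, 1952 and 2209 normalized counts in si-CTRL and 516, 588 and 567 in si-NEK2 libraries (log2 fold change -2.13, standard error 0.18; limma, adjusted p = 4.68e-05). TRAF5 went from 549 ± 66.9 to 348 ± 15.8 (SD, n = 3 per group; log2 fold change -0.65, limma adjusted p = 0.00189), and without si-CTRL replicate 1 it came to -0.55, which leaves 1 lower gene in this list. Quantile normalization also gave 1 lower gene in it. TBK1 itself had means of 6807 and 7123 normalized counts (log2 fold change 0.07, standard error 0.06; limma, adjusted p = 0.4).

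Of the genes that bind, edit or degrade double-stranded RNA, 2 of 13 tested were lower and 0 higher, although the median log2 fold change was 0.21. ADARB1, an adenosine deaminase acting on double-stranded RNA, fell from 1168 ± 92.3 to 723 ± 63.1 normalized counts (SD, n = 3 per group; log2 fold change -0.69, limma adjusted p = 0.000652). OAS1, OAS2 and OAS3 were not analysed here. The cytosolic DNA sensing list had 0 of 6 tested genes past the thresholds in limma, and 1 lower gene when replicate 2 of si-CTRL or replicate 3 of si-NEK2 was omitted. At the unadjusted p of 0.05 alone 5 of the 6 passed, edgeR and DESeq2 also called 0, and the median log2 fold change was 0.00. With upper quartile scaling, equal totals or quantile normalization 1 gene was lower.

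Among eIF2 kinases and their partners, 1 of 16 was higher and 1 lower (median log2 fold change 0.11). EIF2AK3, which encodes PERK, the kinase of the endoplasmic reticulum, rose from 4321 ± 357 to 6798 ± 268 (SD, n = 3 per group; log2 fold change 0.66, limma adjusted p = 0.000249). It came to 0.53 with equal totals and 0.56 after quantile normalization, both under the fold change of 1.5. PPP1R15A, which encodes GADD34 and directs the removal of the phosphate from eIF2α, fell from 9419 ± 2170 to 5063 ± 246 (log2 fold change -0.87, limma adjusted p = 0.00134).

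Of 10 other interferon regulatory factors and their binding proteins, 2 were higher and 1 lower (median log2 fold change -0.18). IRF5 was low and rose from 73 ± 9.07 to 124 ± 11.9 normalized counts (SD, n = 3 per group; log2 fold change 0.77, limma adjusted p = 0.0055). IRF2BPL was lower, with a log2 fold change of -0.81 (standard error 0.14; limma, adjusted p = 0.00193). In the list of TRAF proteins and partners, TRAF1 was the 1 gene of 7 tested that passed, with 369 ± 5.87 and 208 ± 25.8 normalized counts (SD, n = 3 per group; log2 fold change -0.83, limma adjusted p = 0.000753). The median log2 fold change of this list was 0.13. edgeR, DESeq2, each of the other scalings and the fit without si-CTRL replicate 1 gave 2 lower genes in it. The interferon regulatory factors had 2 lower genes without si-CTRL replicate 2 or si-NEK2 replicate 1, with upper quartile scaling or equal totals, without the trend and with the replicate block.

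The list of interferons, their receptors and JAK-STAT genes held the interferons IFNB1, IFNE, IFNK, IFNL1, IFNL2 and IFNL3. Other interferon genes were not examined. Of those listed, IFNE, a type I interferon known from epithelia, was the one with enough reads to be tested. It had 199, 223 and 219 normalized counts in the si-CTRL libraries and 124, 155 and 160 in the si-NEK2 libraries. The groups did not overlap, and the log2 fold change of -0.55 (standard error 0.14; limma, adjusted p = 0.0128) lay under the fold change of 1.5. IFNE is named after its values were seen. The other listed interferons were near 0. IFNB1 had 4, 2 and 2 reads in the si-CTRL libraries and 4, 4 and 8 in the si-NEK2 libraries, and IFNL1 had at most 10 reads in any library. IFNK, IFNL2, IFNL3 and the receptor gene IFNLR1 were at 0 reads in each of the 6 libraries, a count that still permits up to 3 reads per library. Neither direction can be read from such counts. None of the 9 tested rows for interferons, their receptors and JAK-STAT genes passed the thresholds in limma with all libraries, and 1 was lower in each of the fits that omitted replicate 1 or 3 of si-CTRL, or replicate 2 or 3 of si-NEK2. At the unadjusted p of 0.05 alone 4 of the 9 rows passed, edgeR and DESeq2 also called 0, and the median log2 fold change was -0.05. With upper quartile scaling or equal totals 2 rows were lower.

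Of 16 interferon-stimulated effectors tested, 6 were lower and 0 higher, beside shares of 14.3% and 8.23% over all tested genes. Among the 6 were IFI44L (816 ± 203 to 181 ± 17.4 normalized counts, log2 fold change -2.14, adjusted p = 4.25e-05), MX2 (log2 fold change -1.42, adjusted p = 0.000228) and XAF1 (-1.11, adjusted p = 0.00326, limma, SD and n = 3 for each mean). The others were MX1 (log2 fold change -1.07), IFI44 (-0.90) and RSAD2 (-2.56), antiviral effectors that fell outside the rule for named genes and are added because they complete the count. The list was not uniform, since IFIT1 (log2 fold change 0.34), HERC5 (0.17) and IFIT2 (0.10) lay on the higher side without passing the thresholds. The median log2 fold change of the list was -0.34. RNA was measured in whole cultures, so that a change in every cell and a change in a share of the cells cannot be told apart for any of these genes.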

How the data were processed

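RNA from 3 si-CTRL and 3 si-NEK2 libraries of MDA-MB-231 cells was sequenced with a stranded mRNA kit. Per the labels and the methods, the authors aligned reads to hg19 with STAR 2.4.0, counted them on FAST DB 2016_1 genes and normalized the counts with DESeq2, and SAMtools, Picard and FastQC are listed in their processing notes. The counting tool and its strand setting are not given in the sources used here. The deposited values are a signal, namely gene counts divided by size factors. All values (100%, tolerance 0.01 read) came out as whole reads after division by the value of 1 read in each library, and totals were 52625492 to 87454509 reads. Intervals and floors cover counting error only. The methods state single reads while the study elsewhere speaks of paired-end sequencing, and in every library genes at exactly 4, 6, 8 or 10 reads outnumbered those at 3, 5, 7 or 9 reads by 1.22 to 1.37 times, the cause of which was not tested. If a fragment was counted as 2 reads, the totals and read numbers given here are 2 times the fragments and counting errors are larger.

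Rows that averaged 10 normalized counts or more were fitted on log2(value + 1) with limma 3.58.1 (R 4.3.3, moderated test with a trend), so that fold changes of low genes are understated. A call required both a p-value of 0.05 or less and a change of 1.5-fold or more, and adjusted p-values follow Benjamini-Hochberg over all 18717 genes. All 9 genes of the set were described. The text names, from each pathway list, up to 3 genes per direction with the largest change among called genes with an adjusted p of at most 0.05, a mean of 50 normalized counts or more and groups without overlap, the called and the nearest neighbours of TRAFD1, and the 5 genes most like it. TICAM1, TBK1, RPL6, MAPKAPK5-AS1, BCL2L12, IFIT1, IFIT2, HERC5 and the transcripts with few reads were named outside this rule, after their values were seen. The members and lists were chosen with earlier results of these data known. Alternatives were other pseudocounts, filters, scalings and thresholds, a replicate block, each library left out, and edgeR 4.0.16 and DESeq2 1.42.0 on the recovered reads. Transcript lengths are from GENCODE 29 and promoters from RefSeq (GRCh38.p14). Some genes that the rule would name are not reported here.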

Additional observations from a re-analysis of the deposited data

How the results depend on the processing

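Among the 9 genes of the set, log2 fold changes changed sign under an alternative for IFIH1 and EIF2AK2, which lie near 0. Of 396 comparisons for 22 named genes outside the set, 388 kept their call and 0 changed sign. The alternatives were fitted over all genes, but their values for other genes named in the text are not reported here. With equal totals, log2 fold changes were -0.09 for IFIH1, -0.49 for DHX58, -0.74 for TLR3, 0.16 for IRF3 and 1.49 for TRAFD1, and 941 genes were higher. Upper quartile scaling gave 0.22 for IRF3 and 1.55 for TRAFD1, and quantile normalization -0.49 for TLR3 and 1.52 for TRAFD1. The number of lower genes of the set past a fold change of 1.5 was 0 after quantile normalization, 0 at a fold change of 2 and 0 to 1 with each library left out, 0 being without si-NEK2 replicate 2. At a fold change of 2, 403 genes were higher and 1234 lower (1637 in all), with 1 higher and 10 lower pathway genes (11 in all) and 0 neighbours of TRAFD1 (0 higher, 0 in all). Leaving out each library gave 3922 to 4413 calls in all and 23 to 27 in the pathway lists. Shares of calls that were higher were 36.6% as reported, 28.1% with upper quartile scaling, 21.3% with equal totals and 45.9% after quantile normalization. Counts of reads recovered from the signal gave 4205 calls with edgeR and 4039 with DESeq2, and a limit on the adjusted p gave 3852. With the replicate number as a block there were 4084 calls (1499 higher, 2585 lower) and TRAFD1 stayed at 1.61. Deviations from the group means correlated at -0.091, 0.0469 and -0.147 between same-numbered libraries. Between libraries of different number they correlated at -0.119 to 0.18. With 3 libraries per group, these values cannot decide whether the numbers mark a pairing. With median transcript lengths, chosen after seeing the data, levels per kb in si-CTRL cells were 1329 for EIF2AK2, 295 for IFIH1, 1100 for IRF3, 152 for TLR3 and 1004 for TRAFD1. Transcripts that averaged under 10 normalized counts, such as IFNB1 and IFNL1, were not tested.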

Other observations

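IRF7 varied between libraries of the same group by 1.54-fold in si-CTRL and 1.9-fold in si-NEK2 cells, and several interferon-stimulated transcripts, picked after their values were seen, showed a spread of their own. ISG15, a ubiquitin-like modifier, had 3141, 5013 and 5965 normalized counts in si-CTRL and 5205, 4678 and 3170 in si-NEK2 libraries. IFI6, an antiviral protein of the endoplasmic reticulum, had 2120, 3612 and 6809 in si-CTRL and 3627, 3120 and 2020 in si-NEK2 libraries. In both transcripts, as in IRF7, si-CTRL replicate 3 was the highest of all libraries and si-NEK2 replicate 3 the lowest of its group. The log2 fold changes were -0.09 (standard error 0.24) for ISG15 and -0.40 (standard error 0.38) for IFI6, which is within the spread of the libraries.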
